A study of Rattus norvegicus with 12 samples.

Results

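Elastic fibres give arteries, lung, skin and uterus their recoil. They are built from a core of cross-linked elastin on a scaffold of microfibrils, in which fibrillins are the main chains and microfibril-associated proteins are bound along them. Fibulins guide the deposition of elastin on the scaffold, and lysyl oxidases cross-link it outside the cell. Smooth muscle cells and fibroblasts are the usual makers of these proteins.

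The genes described here are 10 textbook components of this machinery: Eln, Fbn1, Fbn2, Mfap2, Mfap4, Mfap5, Fbln2, Fbln5, Lox and Loxl1. They were found by gene symbol in the annotation of the array, taking the probe set with the highest mean signal. In practice 8 of the 10 matched, each with 1 probe set, out of 15037 gene symbols on the array (23188 probe sets, of which 15049 carry a symbol). Fbln2 and Lox matched neither by symbol nor by gene ID and were not analysed here. The 8 measured genes lie on 8 different chromosomes (12, 3, 18, 5, 10, 4, 6 and 8 in the order above).

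The RNA levels come from rat Clariom S arrays of ELT3 cells and of their rapamycin-resistant derivative ELT3-245. ELT3 cells lack tuberin, the product of Tsc2, and derive from an Eker rat's uterine leiomyoma, and ELT3-245 was established from 1 ELT3 xenograft tumor of a SCID mouse that did not respond to rapamycin, so both lines lack Tsc2 and the resistant line stands for 1 tumor. Each line was treated with DMSO, the vehicle, or with 20 nM rapamycin in DMSO for 24 hours. Triplicate samples gave 4 groups of 3 and 12 arrays. The values are the deposited log2 signals, in which a difference of 1 is a factor of 2, and the array medians ran from 6.69 to 6.82. Within groups the arrays correlated at 0.9928 to 0.9966 over probe sets, and arrays of different groups at 0.9902 at most. In bulk RNA, fewer cells that make a transcript and less of it per cell cannot be told apart.

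A gene was called changed when it moved at least 1.5-fold and its Benjamini-Hochberg adjusted p, taken over all 23188 probe sets in 1 limma model of the 4 group means, was under 0.05. In DMSO, 6 of the 8 measured elastic fibre genes were higher in ELT3-245 compared to ELT3 and 1 was lower. Over all probe sets, 7.3% were called higher and 7.56% lower in this comparison. In rapamycin, 6 were higher and 0 lower (8.86% and 7.92% of all probe sets). At an unadjusted p under 0.05, 1 was lower in limma, Mfap5, whose adjusted p also passed but whose change was under 1.5-fold. The 6 higher genes were the same in each treatment: Eln, Fbn1, Mfap2, Mfap4, Fbln5 and Loxl1. Their 3 ELT3-245 arrays all lay above the 3 ELT3 arrays in each treatment, a separation that 19.3% of all probe sets showed upward in DMSO and 20% in rapamycin. Mfap5 was separated downward in each treatment, as were 17.5% and 17.7% of all probe sets. For a single gene an exact permutation test of 3 arrays against 3 cannot give a two-sided p under 0.1. The median log2 line difference of the 8 genes was 2.24 in DMSO and 3.06 in rapamycin, against 0.01 and -0.02 over all probe sets.

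**Figure D1:**
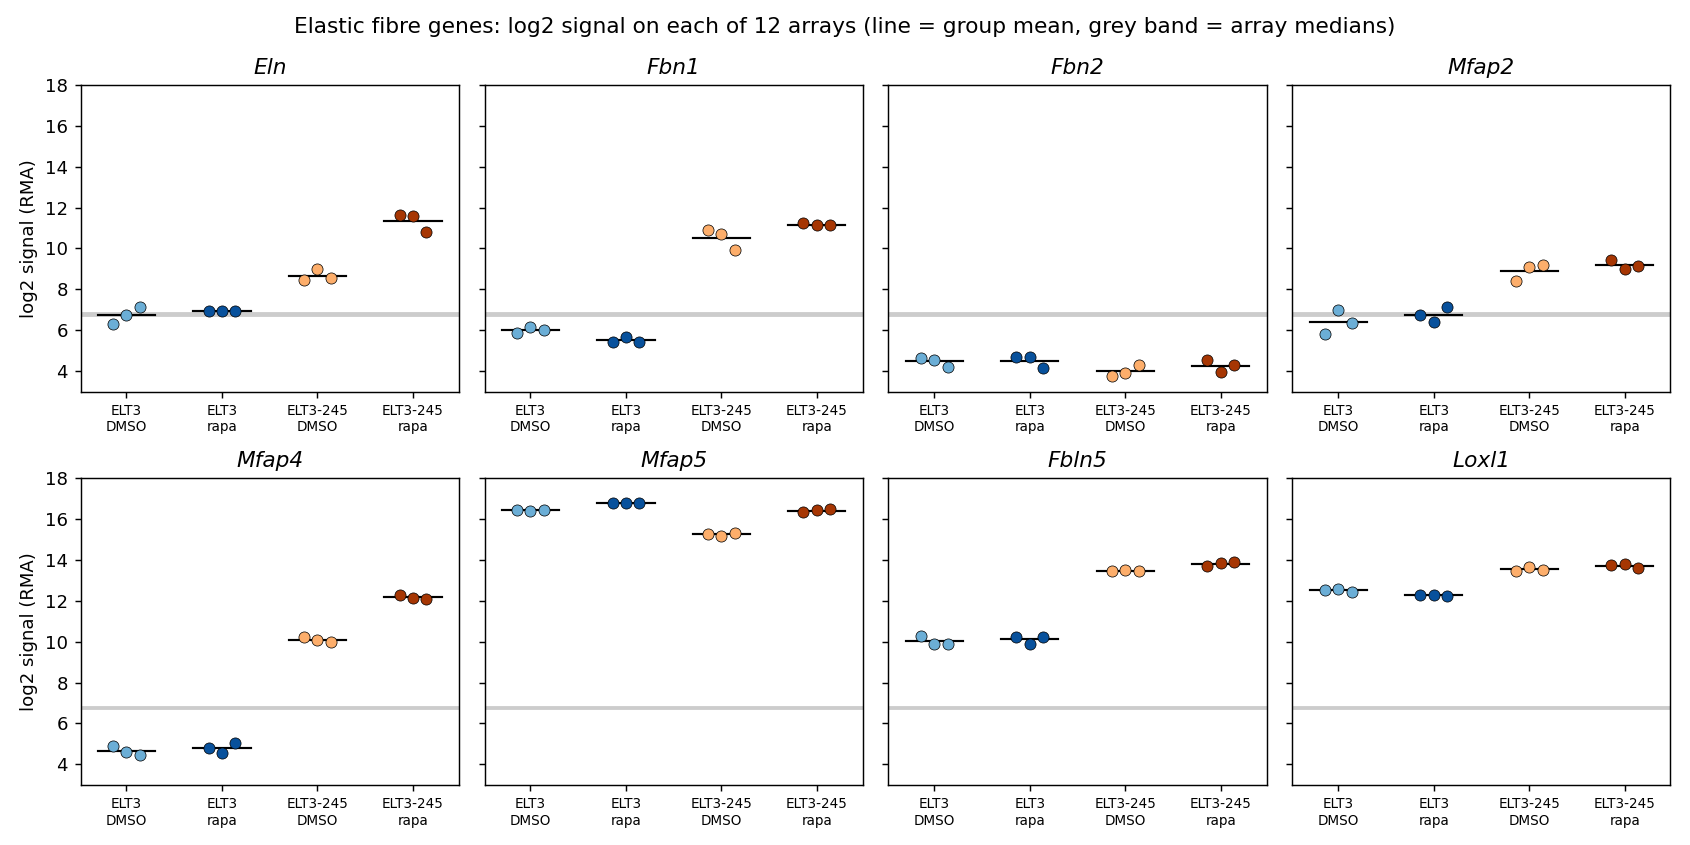
Log2 signal (y axis) of the 8 measured elastic fibre genes on each array, by line and treatment (x axis); points are the 3 arrays of a group, black lines their mean, and the grey band spans the array medians (6.69 to 6.82). Eln and Mfap4 rise from DMSO to rapamycin in ELT3-245, while in ELT3 they stay near or below the band, and Mfap5 is bright in all 4 groups.

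Eln encodes tropoelastin, the soluble precursor of the elastic core. In ELT3 its log2 signals were 6.28, 6.73 and 7.15 in DMSO and 6.92, 6.95 and 6.95 under rapamycin. Those of ELT3-245 were 8.45, 9.0 and 8.56 in DMSO and 11.61, 11.58 and 10.82 under rapamycin. The ELT3 signals thus sat around the array median with overlapping treatments, the DMSO-treated ELT3-245 arrays stood clear above them, and the rapamycin-treated ELT3-245 arrays stood clear above all others. ELT3-245 differed from ELT3 by 1.95 in DMSO (standard error 0.25, 3.86-fold, limma adjusted p = 7.99e-05) and 4.40 under rapamycin (standard error 0.25, 21.0-fold, limma adjusted p = 4.43e-08). Rapamycin raised Eln by 2.67 on the log2 scale in ELT3-245 (6.35-fold, 95% interval 2.13 to 3.20, limma adjusted p = 1.68e-05). In ELT3 the difference was 0.22 (95% interval -0.32 to 0.76, limma adjusted p = 0.581). The responses of the lines differed by 2.45 (95% interval 1.69 to 3.21, limma interaction, adjusted p = 0.00287). The DMSO line difference missed the threshold when a per-gene unequal-variance test was used (adjusted p = 0.0509).

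Fibrillin 1, from Fbn1, is the principal chain of microfibrils in adult tissue. Its log2 signals in ELT3 were 5.86, 6.14 and 6.02 in DMSO and 5.44, 5.65 and 5.43 under rapamycin. Its ELT3-245 signals were 10.88, 10.71 and 9.90 in DMSO and 11.24, 11.13 and 11.14 under rapamycin. All ELT3 signals were below the array medians and all ELT3-245 signals far above them. The lines differed by 4.49 in DMSO (22.5-fold, standard error 0.21, limma adjusted p = 6.96e-09) and 5.66 under rapamycin (50.6-fold, adjusted p = 7.97e-10). Within ELT3-245, the rapamycin-treated arrays lay above the DMSO-treated ones by 0.67 on average (1.59-fold, limma adjusted p = 0.0407), where replicate 3 in DMSO was the lowest. Within ELT3 the order was the opposite, with the rapamycin arrays below the DMSO arrays by a log2 difference of -0.50 that was not called (95% interval -0.95 to -0.05, adjusted p = 0.0996). The responses differed by 1.17 (limma interaction, adjusted p = 0.0429).

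These Fbn1 responses sat close to the threshold. Without ELT3-245 DMSO replicate 3, the response in ELT3-245 was 0.37 (limma adjusted p = 0.0865) and the interaction was 0.88 (adjusted p = 0.0272). The call of the response was also lost without any 1 of the rapamycin-treated ELT3-245 arrays, of the DMSO-treated ELT3 arrays, or of rapamycin-treated ELT3 replicates 1 and 2 (log2 0.64 to 0.69, adjusted p 0.0505 to 0.116). The interaction was lost without any 1 of these arrays or rapamycin-treated ELT3 replicate 3 (log2 1.11 to 1.25, adjusted p 0.0619 to 0.0978). The line differences of Fbn1 were called under all 22 alternatives tried. The window around the annotated start of Fbn1, from 250 bases before it to 50 after it (RefSeq, GRCr8, chr3:133203341-133203640, minus strand), is printed because Fbn1 had the largest line difference of the members with a window. None of the 4 motifs searched on either strand, TGANTCA of AP-1, GGAATG of TEAD factors, CACGTG (the E-box of MYC and MiT/TFE factors) and the TATA box TATAAA, was found in it. The 50 bases after the annotated start open with atg, so this start may be that of translation. The window may then not cover the Fbn1 promoter, and the absence of the motifs does not speak to it.
Fbn1: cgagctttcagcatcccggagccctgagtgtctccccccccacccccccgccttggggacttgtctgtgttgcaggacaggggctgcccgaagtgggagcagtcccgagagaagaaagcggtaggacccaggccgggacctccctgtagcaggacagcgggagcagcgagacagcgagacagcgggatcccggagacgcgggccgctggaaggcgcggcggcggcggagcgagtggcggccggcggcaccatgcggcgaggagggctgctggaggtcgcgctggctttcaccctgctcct

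Fibrillin 2, from Fbn2, is the fibrillin of fetal microfibrils, and its probe set was dim on every array (percentile 11.5 of all probe sets by mean signal). Its signals ran from 4.22 to 4.65 in DMSO-treated ELT3, from 4.14 to 4.69 in rapamycin-treated ELT3, from 3.75 to 4.30 in DMSO-treated ELT3-245 and from 3.94 to 4.56 in rapamycin-treated ELT3-245. All groups overlapped. Its difference between the lines was -0.49 in DMSO (95% interval -0.94 to -0.03, limma adjusted p = 0.128) and -0.24 under rapamycin (95% interval -0.70 to 0.21, adjusted p = 0.466). Rapamycin against DMSO gave 0.03 in ELT3 (95% interval -0.42 to 0.49) and 0.28 in ELT3-245 (95% interval -0.18 to 0.73), and neither was called (limma adjusted p = 0.935 and 0.448). The difference of these responses was 0.24 (95% interval -0.40 to 0.89, adjusted p = 0.71).

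The 3 microfibril-associated genes behaved in 3 ways. Mfap4 encodes a fibrinogen-domain glycoprotein that binds elastin and fibrillin. Its log2 signals in ELT3 were 4.91, 4.59 and 4.45 in DMSO and 4.79, 4.55 and 5.02 under rapamycin. ELT3-245 gave 10.22, 10.10 and 9.99 in DMSO and 12.31, 12.13 and 12.09 under rapamycin. ELT3 thus gave a dim signal in either treatment, and ELT3-245 a bright one that was brighter still in rapamycin, with no overlap. Between the lines the difference was 5.45 in DMSO (standard error 0.15, limma adjusted p = 1.19e-10) and 7.39 under rapamycin (adjusted p = 2.37e-11). The ELT3 signals were close to those of Cdh5 and Myh11, markers of endothelium and of mature smooth muscle, whose group means ran from 4.49 to 4.91. The sizes are therefore set against a dim signal with no detection call at hand, and no fold between the lines is given for Mfap4. Rapamycin raised Mfap4 in ELT3-245 by 2.07 (4.21-fold, 95% interval 1.75 to 2.40, limma adjusted p = 3.11e-06), against 0.14 in ELT3 (95% interval -0.19 to 0.47, adjusted p = 0.569). The responses differed by 1.94 (limma interaction, adjusted p = 0.000515).

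Mfap5, which encodes the small microfibril glycoprotein MAGP-2, ran opposite to Mfap4 between the lines. Its probe set was among the brightest of the array (percentile 99.2 by mean signal). The log2 signals were 16.43, 16.40 and 16.46 in DMSO and 16.80, 16.78 and 16.78 under rapamycin in ELT3. The ELT3-245 arrays read 15.29, 15.15 and 15.33 in DMSO and 16.33, 16.42 and 16.50 under rapamycin. DMSO-treated ELT3-245 was thus the lowest group and rapamycin-treated ELT3 the highest, and the rapamycin-treated ELT3-245 arrays fell on both sides of the DMSO-treated ELT3 arrays. ELT3-245 differed from ELT3 by -1.17 in DMSO (2.25-fold lower in ELT3-245, standard error 0.10, limma adjusted p = 1.59e-06). Under rapamycin the difference was -0.37, under 1.5-fold (95% interval -0.58 to -0.16, adjusted p = 0.0126). Rapamycin raised Mfap5 in ELT3-245 by 1.16 (2.23-fold, limma adjusted p = 7.65e-06). In ELT3 the difference of 0.36 had an adjusted p of 0.0153 but was under 1.5-fold. The responses differed by 0.80 (limma interaction, adjusted p = 0.00735). The start window of Mfap5 (RefSeq, GRCr8, chr4:157399669-157399968, plus strand) is shown since Mfap5 and Fbn1 are the members with a differing response for which a window was at hand, and it held none of the 4 motifs.
Mfap5: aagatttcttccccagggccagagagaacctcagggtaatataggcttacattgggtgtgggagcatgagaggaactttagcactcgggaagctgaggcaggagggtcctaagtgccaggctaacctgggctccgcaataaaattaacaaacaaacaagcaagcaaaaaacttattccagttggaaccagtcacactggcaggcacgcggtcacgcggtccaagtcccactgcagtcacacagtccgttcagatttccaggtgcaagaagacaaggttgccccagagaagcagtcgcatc

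Mfap2 encodes MAGP-1, the close relative of MAGP-2 that binds fibrillin and tropoelastin. Its log2 signals were 5.80, 7.01 and 6.33 in DMSO and 6.74, 6.42 and 7.14 under rapamycin in ELT3. The resistant line gave 8.41, 9.11 and 9.21 in DMSO and 9.43, 8.97 and 9.14 under rapamycin. The lines were apart and the treatments overlapped within each line. The lines differed by 2.53 in DMSO (5.78-fold, standard error 0.30, limma adjusted p = 4.65e-05) and 2.42 under rapamycin (5.34-fold, adjusted p = 6.49e-05). By the per-gene unequal-variance test the adjusted p in DMSO was 0.0561. The rapamycin difference was 0.39 in ELT3 (95% interval -0.27 to 1.04) and 0.27 in ELT3-245 (95% interval -0.38 to 0.93), and neither was called (limma adjusted p = 0.409 and 0.632). The difference of these responses, -0.12, had a 95% interval of -1.04 to 0.81 and an adjusted p of 0.917 in limma.

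Fibulin 5, from Fbln5, tethers elastin to cells and to microfibrils. Its log2 signals were 10.28, 9.88 and 9.89 in DMSO and 10.22, 9.91 and 10.21 under rapamycin in ELT3. In the resistant line the signals were 13.45, 13.51 and 13.47 in DMSO and 13.72, 13.87 and 13.88 under rapamycin. The lines were more than 3 log2 units apart on every array. Its difference between the lines was 3.46 in DMSO (11.02-fold, standard error 0.13, limma adjusted p = 1.44e-09) and 3.71 under rapamycin (13.1-fold, adjusted p = 7.16e-10). Within ELT3-245 the rapamycin arrays all lay above the DMSO arrays, but the difference of 0.35 (95% interval 0.06 to 0.64, limma adjusted p = 0.0981) was not called, nor was the 0.10 in ELT3 (95% interval -0.19 to 0.39, adjusted p = 0.656). The difference of these responses was 0.25 (95% interval -0.16 to 0.66, adjusted p = 0.518).

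Loxl1 encodes a lysyl oxidase-like enzyme that cross-links tropoelastin and binds fibulin 5. Its log2 signals were 12.53, 12.58 and 12.44 in DMSO and 12.27, 12.31 and 12.23 under rapamycin in ELT3. ELT3-245 had 13.46, 13.67 and 13.51 in DMSO and 13.73, 13.81 and 13.60 under rapamycin. Loxl1 was well above the array medians in both lines and showed the smallest line difference of the 6 higher genes. This difference was 1.03 in DMSO (2.05-fold, standard error 0.10, limma adjusted p = 1.02e-05) and 1.45 under rapamycin (2.73-fold, adjusted p = 4.31e-07). The rapamycin difference was -0.25 in ELT3 (95% interval -0.47 to -0.02, limma adjusted p = 0.11) and 0.17 in ELT3-245 (95% interval -0.06 to 0.39, adjusted p = 0.335). The difference of these responses, 0.41, was not called (95% interval 0.09 to 0.73, limma adjusted p = 0.146).

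The start windows of Fbln5 (chr6:126742657-126742956, minus strand) and Loxl1 (chr8:67612175-67612474, minus strand; both RefSeq, GRCr8) are shown because each held 1 of the motifs searched. In capitals is the TEAD motif GGAATG, read on the other strand, from position -186 to -181 of Loxl1 and from 15 to 20 of Fbln5, counted from 0 at the first base after the 250 bases before the start.
Fbln5: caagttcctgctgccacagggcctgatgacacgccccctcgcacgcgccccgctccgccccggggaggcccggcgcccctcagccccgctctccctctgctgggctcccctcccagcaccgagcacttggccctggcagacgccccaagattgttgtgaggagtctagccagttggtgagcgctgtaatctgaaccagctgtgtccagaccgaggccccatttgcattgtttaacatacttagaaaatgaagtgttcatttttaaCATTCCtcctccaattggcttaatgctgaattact
Loxl1: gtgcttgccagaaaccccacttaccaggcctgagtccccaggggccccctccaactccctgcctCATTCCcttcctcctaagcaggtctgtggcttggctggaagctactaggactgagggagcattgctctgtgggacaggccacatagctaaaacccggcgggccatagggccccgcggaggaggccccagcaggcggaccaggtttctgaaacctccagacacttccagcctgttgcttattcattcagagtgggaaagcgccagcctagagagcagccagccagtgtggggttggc

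Of the 8 measured members, 6 had a start window among 33469 of the same length, while Eln and Mfap4 are named only. The TEAD motif was in the windows of Fbn2, Fbln5 and Loxl1 and in 14.2% of all windows. The motifs of AP-1, the E-box and the TATA box were in none of the 6 windows and in 7.33%, 6.42% and 14.2% of all windows. One of the 3 genes with the TEAD motif, Fbn2, was not called between the lines. The Fbn2 window, like that of Fbn1, has atg at the annotated start, so it too may not cover the promoter.

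**Figure D2:**
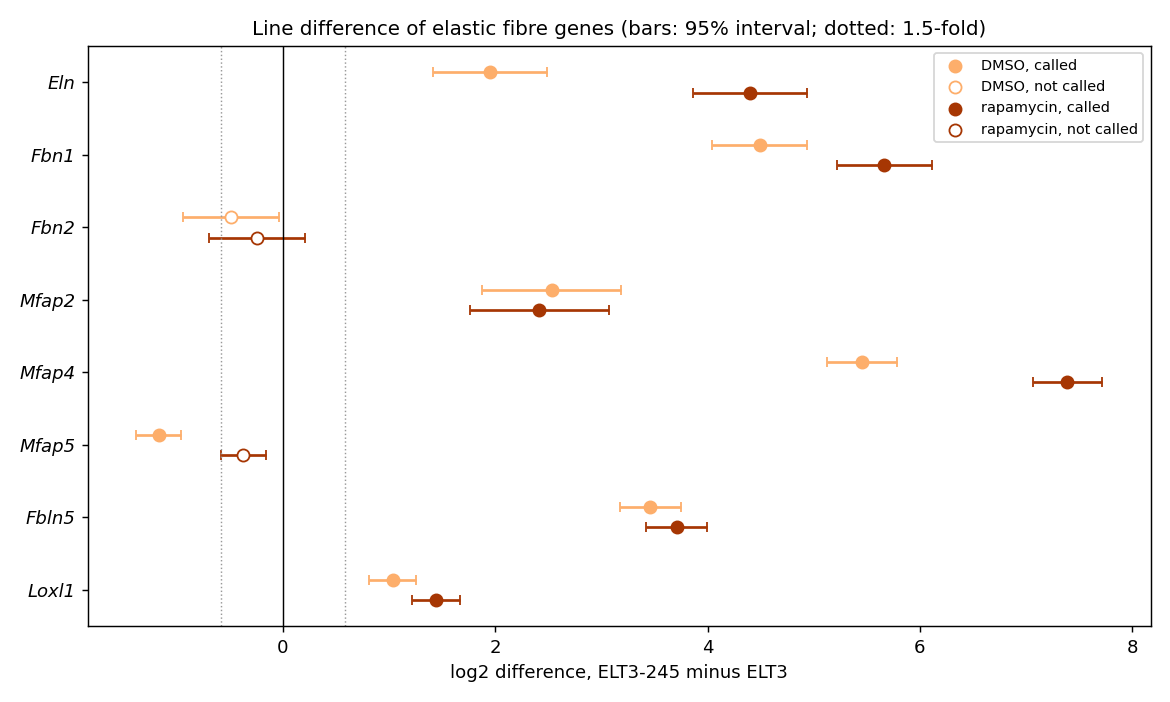
Log2 difference between ELT3-245 and ELT3 (x axis) for each measured member (y axis), in DMSO (light) and rapamycin (dark), with 95% intervals from limma; filled points are called. Mfap4 reaches 5.45 and 7.39, Eln goes from 1.95 to 4.40, and Mfap5 lies below 0 in each treatment.

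The second question was how each line responded to rapamycin. In ELT3-245, 4 of the 8 measured members were higher in rapamycin and 0 lower, namely Eln, Mfap4, Mfap5 and Fbn1, beside 5.65% of all probe sets called higher and 4.98% called lower. No member was lower by limma at an unadjusted p under 0.05 either, and the per-gene unequal-variance test called 3 higher and 0 lower. In ELT3, 0 were higher and 0 lower (7.47% and 8.45% of all probe sets). At an unadjusted p under 0.05 in limma, Mfap5 was higher and Fbn1 and Loxl1 were lower in ELT3, and the per-gene unequal-variance test, adjusted, called 0. The difference between the responses was called for 4 members, all with the higher response in ELT3-245 (2.17% of all probe sets, with 2.06% called lower), the same 4 genes as above. The arrays of the treatments did not overlap for 5 members in ELT3-245, all upward (17.1% of all probe sets, with 17.8% downward), and in ELT3 for 1 upward and 2 downward (18.3% and 19.4%). The response of each line shares its DMSO arrays with the line difference in DMSO and its rapamycin arrays with that in rapamycin. The difference between the responses uses all 4 groups. These comparisons are therefore not independent of the line differences. The median rapamycin difference of the 8 genes was 0.51 in ELT3-245 and 0.12 in ELT3, against -0.02 and 0.02 over all probe sets. For Fbn1, Mfap4 and, in part, Eln the ELT3 signals lay at or below the array medians, and those of Mfap4 near the dim end of the array.

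**Figure D3:**
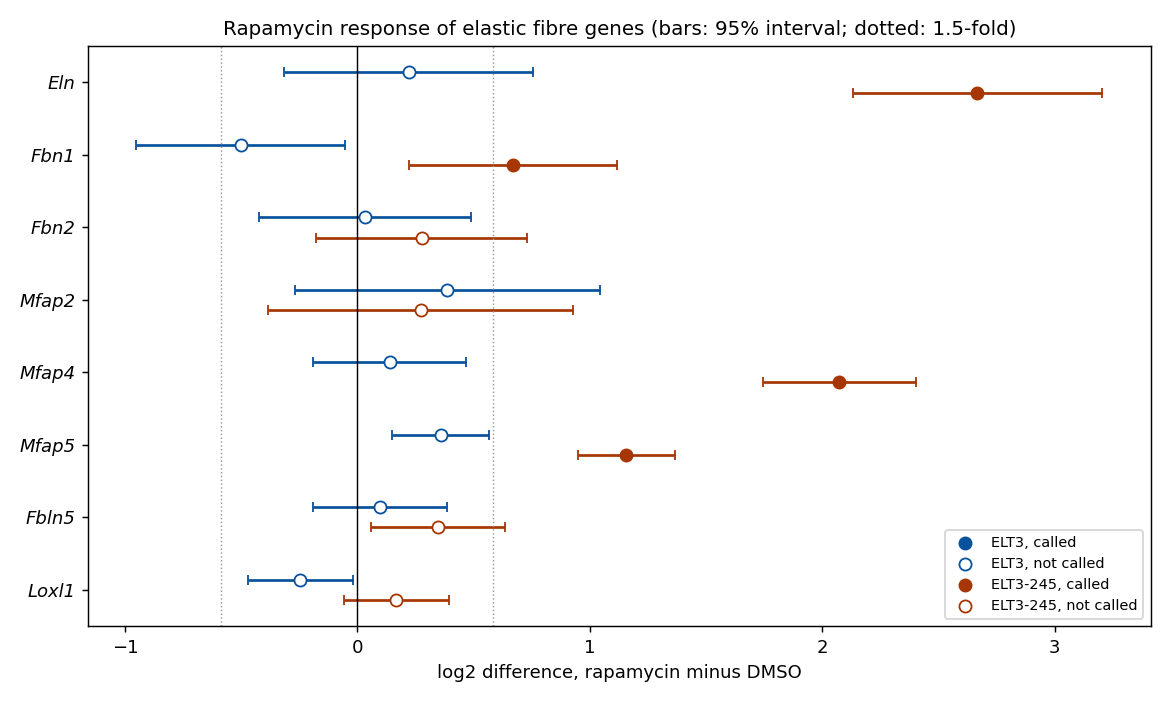
Log2 difference between rapamycin and DMSO (x axis) for each measured member (y axis), in ELT3 (blue) and ELT3-245 (brown), with 95% intervals from limma; filled points are called. In ELT3-245 the values of Eln (2.67), Mfap4 (2.07), Mfap5 (1.16) and Fbn1 (0.67) are filled, and none is in ELT3.

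The other genes of the elastic fibre pathway were called in both directions between the lines. Of 46 genes listed by textbook role, 37 were measured. In ELT3-245 compared to ELT3, the DMSO cultures had 6 higher, 9 lower and 22 uncalled genes, and the rapamycin cultures 9 higher, 8 lower and 20 uncalled. Over all probe sets, 7.3% were higher and 7.56% lower in DMSO, and 8.86% and 7.92% in rapamycin. These shares also stand beside the counts by role below. The median log2 line difference of the 37 genes was 0.02 in DMSO and -0.15 in rapamycin, against 0.01 and -0.02 over all probe sets. With rapamycin, 14 were higher and 2 lower in ELT3 (7.47% and 8.45% of all probe sets). In ELT3-245, 11 were higher and 1 lower (5.65% and 4.98%). The medians were 0.37 and 0.39, against 0.02 and -0.02 over all probe sets. The response was called upward in both lines for genes such as Adamtsl4, which encodes a fibrillin-binding glycoprotein (log2 2.72 in ELT3 and 2.55 in ELT3-245, limma adjusted p = 4.12e-07 and 1.05e-06), and Postn, which encodes periostin (log2 1.85 and 1.87, adjusted p = 4.73e-06 and 6.78e-06). These 2 genes were chosen as examples after their values were seen.

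The latent TGF-β binding proteins, which hold latent TGF-β on fibrillin microfibrils, were higher in ELT3-245 for 2 of 4 genes in DMSO and 4 of 4 in rapamycin. Ltbp3 showed the largest difference among them, with signals of 7.61, 7.76 and 7.70 in DMSO-treated ELT3 and 10.79, 10.96 and 11.24 in DMSO-treated ELT3-245. Rapamycin raised it in each line, to 9.49, 9.18 and 9.64 in ELT3 and to 12.71, 12.63 and 12.89 in ELT3-245. No array of the lines overlapped within a treatment, and the line difference of Ltbp3 was 3.31 in DMSO and in rapamycin (limma adjusted p = 5.93e-09 and 5.8e-09). Ltbp1 was higher by 0.96 in DMSO and 1.14 under rapamycin (adjusted p = 4.23e-05 and 8.8e-06). Ltbp2 and Ltbp4 were called in rapamycin, at log2 0.80 and 0.95 (adjusted p = 0.023 and 0.00749), and the call of Ltbp2 was lost without ELT3-245 rapamycin replicate 3 (log2 0.72, adjusted p = 0.0811) or ELT3 rapamycin replicate 1 (log2 0.66, adjusted p = 0.0874).

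Of the fibulins and matrix bridges, 1 of 4 was higher and 1 lower in each treatment. Efemp2, which encodes fibulin 4, needed for elastic fibre assembly, was lower by 1.68-fold in DMSO and 2.18-fold in rapamycin (log2 -0.75 and -1.12, limma adjusted p = 0.00245 and 9.47e-05). Hmcn1, which encodes the large matrix protein hemicentin 1, was higher by 1.25 and 1.94 (adjusted p = 0.00227 and 6.29e-05). Of the 2 measured EMILIN genes, which encode glycoproteins at the surface of elastic fibres, 0 were called in any of the 5 comparisons, and at an unadjusted p under 0.05 Emilin1 was lower in rapamycin in limma (log2 -0.40).

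The lysyl oxidase paralogs and helpers held 1 higher and 3 lower genes of 8 in DMSO and 1 and 1 in rapamycin. Pcolce, which encodes an enhancer of the procollagen C-proteinase, was higher by 0.75 in DMSO and 0.68 under rapamycin (limma adjusted p = 8.9e-05 and 0.000183). Atp7a, which encodes the pump that loads copper onto secreted enzymes such as lysyl oxidases, was lower in ELT3-245 (log2 -0.88 and -1.54, adjusted p = 2.96e-05 and 1.6e-07). Loxl3 and Loxl4 were lower in DMSO (log2 -0.73 and -0.97, adjusted p = 0.000271 and 0.00215), opposite to Loxl1.

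Among ADAMTS proteins, Adamts10, whose product binds fibrillin 1, was lower in ELT3-245 by 2.48-fold in DMSO and 2.51-fold in rapamycin (log2 -1.31 and -1.33, limma adjusted p = 6.66e-06 and 5.57e-06). Adamtsl5 was lower by a log2 difference of -1.40 and -0.74 (adjusted p = 5.71e-05 and 0.00653). Without ELT3 rapamycin replicate 1 the Adamtsl5 difference in rapamycin was under 1.5-fold (log2 -0.54). Of 7 proteases that can cut elastin, 2 were higher and 0 lower in each treatment. At an unadjusted p under 0.05 in limma, Mmp12 was also lower in rapamycin.

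Ctsk, the gene of the elastin- and collagen-cutting cathepsin K, had signals of 5.86, 5.82 and 5.63 in DMSO-treated ELT3 and 9.50, 9.78 and 9.96 in DMSO-treated ELT3-245. Its line difference was 3.98 in DMSO and 3.89 under rapamycin (15.7-fold and 14.8-fold, limma adjusted p = 2.02e-07 and 2.5e-07). The Ctsk difference in rapamycin missed the threshold in the per-gene unequal-variance test (adjusted p = 0.0763). The gelatinase gene Mmp2 was higher by 0.78 and 0.59 (adjusted p = 9.39e-05 and 0.000756), the latter under 1.5-fold without ELT3-245 rapamycin replicate 1 (log2 0.53) or ELT3 rapamycin replicate 3 (log2 0.57).

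Of 8 elastin receptor and integrin genes, 0 were higher and 3 lower in DMSO, and 1 was higher and 4 lower in rapamycin. In DMSO the adjusted p of Itgb5 and Neu1 also passed (limma, 0.000977 and 0.00655), but they were lower by under 1.5-fold (log2 -0.53 and -0.56). Itga5 was higher in DMSO only at an unadjusted p under 0.05 (log2 0.50, limma adjusted p = 0.0533). Itga8, which encodes an integrin chain of smooth muscle and mesenchyme, had signals of 9.57, 9.52 and 9.60 in DMSO-treated and 12.13, 12.25 and 11.89 in rapamycin-treated ELT3. The values of ELT3-245 were 5.94, 6.61 and 6.33 in DMSO and 7.02, 6.93 and 6.97 under rapamycin, below every ELT3 array. Its line difference was -3.27 in DMSO and -5.12 under rapamycin (limma adjusted p = 1e-08 and 1.96e-10). Itgb1 and Itgb3, which encode integrin β chains, were lower in DMSO (log2 -1.16 and -1.84, adjusted p = 2.26e-06 and 3.43e-06) and in rapamycin (log2 -1.07 and -2.35, adjusted p = 4.63e-06 and 3.32e-07). In rapamycin Itgb5 was lower (log2 -0.75, adjusted p = 5.44e-05) and Itga5, which encodes the fibronectin receptor chain, higher (log2 0.79, adjusted p = 0.00365).

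**Figure D4:**
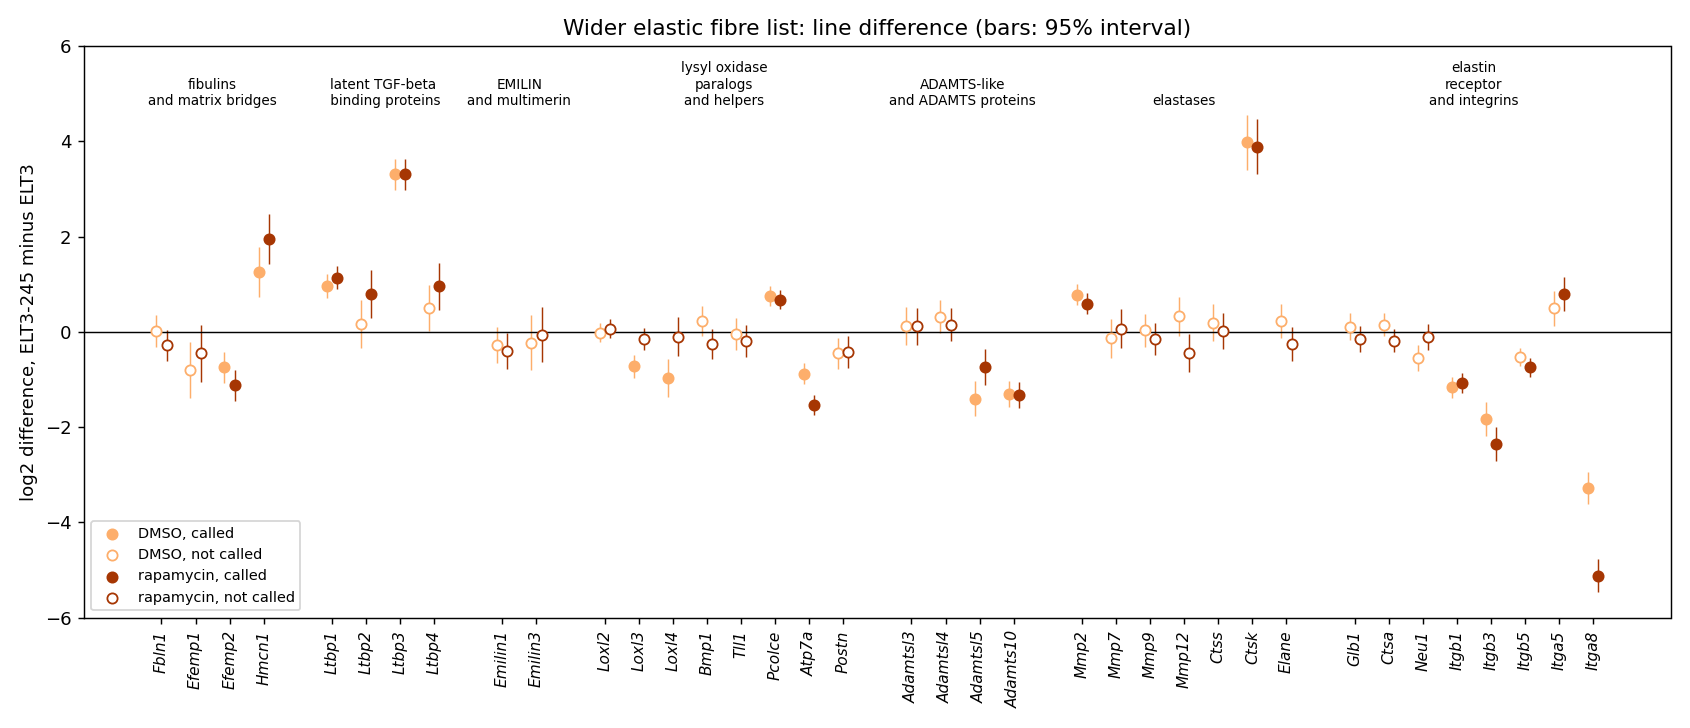
Log2 difference between ELT3-245 and ELT3 (y axis) for the 37 measured genes of the wider list, grouped by role (x axis), in DMSO (light) and rapamycin (dark), with 95% intervals from limma; filled points are called. Ltbp3 and Ctsk stand at 3.31 and 3.98 in DMSO, and Itga8 at -3.27.

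Markers of other cells were read beside these results. Over all probe sets, 7.3% were called higher and 7.56% lower between the lines in DMSO, and 8.86% and 7.92% in rapamycin. With rapamycin the shares were 7.47% and 8.45% in ELT3 and 5.65% and 4.98% in ELT3-245. The interaction was called higher for 2.17% and lower for 2.06%. Of 9 fibroblast markers, 6 were higher and 0 lower in ELT3-245 in each treatment, among them Dcn (log2 5.92 in DMSO and 5.74 in rapamycin, limma adjusted p = 1.01e-09 and 1.13e-09). Col1a1 was lower in each treatment (log2 -0.49 in each). Its adjusted p passed (limma, 0.0029 in DMSO and 0.00247 in rapamycin), but the change was under 1.5-fold. No other fibroblast marker was lower between the lines at an unadjusted p under 0.05. The log2 of the summed signal of the 9 markers was 17.88 to 17.91 in DMSO-treated and 18.26 to 18.37 in rapamycin-treated ELT3, and 18.13 to 18.23 and 18.41 to 18.51 in ELT3-245. With rapamycin, 2 fibroblast markers of 9, Pdgfra and Thy1, were higher in ELT3 (log2 1.31 and 0.63) and 0 lower. In ELT3-245, 1 of 9, Thy1, was higher (log2 0.83) and 0 lower. There Col3a1 was lower only at an unadjusted p under 0.05 (log2 -0.28, limma adjusted p = 0.115). The difference of the responses was called for 0 in the upward and 1, Pdgfra, in the downward direction. Of the 9 markers, 6 thus moved with the line difference of the elastic fibre genes, and Col1a1 moved the other way. Pdgfrb (log2 0.06 in DMSO and -0.14 in rapamycin) and Col1a2 (log2 0.05 and -0.07) were not called. The part of these markers in the line difference was not tested.

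Of 8 smooth muscle markers, the DMSO cultures of ELT3-245 had 3 higher and 3 lower, and the rapamycin cultures 0 higher and 3 lower. In rapamycin the adjusted p of Des and Smtn also passed (limma, 0.00936 and 0.00434), but they were higher by under 1.5-fold (log2 0.42 and 0.47). Myh11 was higher only at an unadjusted p under 0.05 (log2 0.42, limma adjusted p = 0.0989). The log2 of the summed signal of the 8 markers was 16.95 to 17.00 and 18.11 to 18.20 in ELT3 and 17.07 to 17.17 and 17.40 to 17.58 in ELT3-245, in DMSO and in rapamycin. Acta2, Tagln and Des, which encode smooth muscle actin, transgelin and desmin, were well above the array medians in all groups, while Myh11, which encodes smooth muscle myosin, had group means of 4.49 to 4.91 and was below them. With rapamycin, 4 of the 8 were higher and 0 lower in ELT3, and 2 and 0 in ELT3-245, where none was lower at an unadjusted p under 0.05 in limma. The response of Tagln was higher in ELT3-245 (log2 2.48) than in ELT3 (log2 1.67), a difference of 0.81 (limma interaction, adjusted p = 0.00507) in the direction of Eln and Mfap4. That of Acta2 differed the other way, by -1.02 (limma interaction, adjusted p = 0.0044). The part of these markers in the responses of the elastic fibre genes was not tested.

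Of 6 leukocyte markers, Ptprc, Adgre1 and Aif1 were below the array medians in all groups and 3 were not. Cd14 had group means of 11.66 to 13.90 and Cd68 of 6.91 to 8.5, above the medians in all groups. Csf1r was above them in DMSO (8.17 in ELT3 and 8.56 in ELT3-245) and below them in rapamycin (5.52 and 5.75). Between the lines Cd68 was higher in ELT3-245 in DMSO (log2 1.59) and Cd14 lower in each treatment (log2 -0.73 in each). Of 6 endothelial markers, Cdh5, Vwf, Pecam1 and Emcn were below the array medians in all groups. Kdr was higher in ELT3-245 in each treatment (log2 7.22 and 6.25), Tek was lower in each (log2 -1.57 and -1.60), and Pecam1 was lower in rapamycin (log2 -0.88). Of 5 epithelial markers, 0 were higher and 2 lower in DMSO and 0 and 1 in rapamycin, Krt8 among them in each treatment (log2 -3.75 and -5.54), with Epcam, Krt18 and Krt19 below the array medians in all groups. No epithelial marker was higher between the lines at an unadjusted p under 0.05 in limma.

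The genes whose profile over the 12 arrays was closest to that of a member, each centred on its own mean, were found among 15041 probe sets with 1 symbol. The measure is the root mean square difference of the log2 signals, and the points are 3 arrays in each of 4 groups. For Eln the closest were Slc14a1, Tshr and Fgf1, at 0.42, 0.46 and 0.54, where Eln itself varied by 1.87 about its mean. For Fbn1 (2.57) they were Aqp1, Scin and Adamts9, at 0.31, 0.38 and 0.41. For Mfap4 (3.30) they were Lect2, Scara3 and Cd34, at 0.38, 0.49 and 0.50. For Mfap5 (0.58) they were Pdlim1, Sgms2 and B4galt6, at 0.13, 0.14 and 0.14. For Fbln5 (1.80) they were Ocm, Wdr83 and Plce1, at 0.13, 0.19 and 0.22. For Mfap2 (1.30) they were Dock11, Zfp385d and Etv1, each at 0.38, and for Loxl1 (0.63) Hoxa13, Vgll4 and Dapk2, at 0.10, 0.14 and 0.15. None of these genes was among the closest 3 of more than 1 member.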

How the data were processed

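The authors deposited log2 signals, 1 value per probe set and array, which per the labels were made by RMA (background correction, normalization between arrays and summary of probes), with software, version and annotation build not given in the sources used here. All 12 arrays were used. The number of arrays limits the precision, and the p-values measure the spread between triplicate samples of 1 experiment. Probe sets were named through the platform annotation. The labels' stock and volume do not give the stated dose of 20 nM, which is printed as stated.

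Group means of the 12 arrays were fitted in limma 3.58.1 (R 4.3.3) with moderated variances (8 residual and 3.906 prior degrees of freedom) and Benjamini-Hochberg adjustment over 23188 probe sets. The contrasts were the lines within each treatment, rapamycin within each line, and the interaction. Scripts were tested on simulated data. Alternatives were quantile normalization, median centring, an intensity trend, array weights, the replicate block, leaving out dim probe sets, fitting only the groups compared, other fold thresholds, a per-gene unequal-variance test and leaving out each array. The members, the wider list and the markers of 5 cell types were chosen with earlier results of these data known. Every member is named, and so is every gene of the wider list called between the lines, with the 3 closest profiles for the 7 members with a called line difference. Start windows and motifs come from RefSeq (GRCr8).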

Additional observations from a re-analysis of the deposited data

Results flagged for a closer look

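The response to rapamycin differed between the lines, by a test of the difference itself in limma, for 4 elastic fibre genes. The difference (ELT3-245 minus ELT3, log2) was 2.45 for Eln, 1.94 for Mfap4, 1.17 for Fbn1 and 0.80 for Mfap5. The Fbn1 call was kept in only 3 of the 12 fits with 1 array left out. Mfap4 was dim in ELT3, with group means of 4.65 in DMSO and 4.79 in rapamycin. In the wider list the response differed for Loxl3 (0.59, adjusted p = 0.0498), Atp7a (-0.66, adjusted p = 0.0221) and Itga8 (-1.84, adjusted p = 0.000902). The Loxl3 call was lost without any 1 of the 12 arrays (log2 0.52 to 0.65, adjusted p 0.0566 to 0.11) and with quantile normalization, median centring, array weights, the replicate block or a threshold of 2-fold. The Atp7a call was lost at 2-fold and without 6 of the 12 arrays, ELT3-245 DMSO replicates 2 and 3, ELT3-245 rapamycin replicates 2 and 3 and ELT3 DMSO replicates 2 and 3 (log2 -0.68 to -0.61, adjusted p 0.0502 to 0.0541). The Itga8 call was kept without any 1 array (log2 -2.02 to -1.68). Rapamycin raised Itga8 by 2.53 in ELT3 and by 0.68 in ELT3-245. Dixon's test of single values was not run, and groups of 3 arrays would give it little power.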

How the results depend on the processing

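Of 859 values of members under the alternatives, 823 kept their direction and their side of the threshold, 25 lost a call, 2 gained one and 9 changed sign. The 9 were of differences that were never called. The response of Fbn2 in ELT3 (0.03) was -0.0375 with median centring and -0.0941 to 0.212 with 1 array left out. The interaction of Mfap2 (-0.12) was 0.0948 with array weights and -0.43 to 0.176 with 1 array left out, and the response of Eln in ELT3 (0.22) was then -0.000137 to 0.435. For the wider list only the line differences called in the main fit were followed, so that no call could be gained. Of these 700 values, 669 kept their direction and call and 31 lost a call. With any 1 array left out, the members called between the lines stayed at 6 higher and 1 lower with DMSO, and at 6 and 0 with rapamycin, those raised by rapamycin in ELT3-245 numbered 3 to 4, those in ELT3 0, and those with a different response 3 to 4. The gene lost was Fbn1: its response in ELT3-245 kept its call in 9 of 22 alternatives (adjusted p 0.0566 with median centring, 0.0988 with only the groups compared and 0.401 in the unequal-variance test) and its interaction in 11 of 20. With no fold threshold Mfap5 was also called, so that 1 member was lower in rapamycin between the lines and 1 higher with rapamycin in ELT3. At a threshold of 2-fold the interaction of Mfap5 lost its call. The cause of these changes was not tested, other than the thresholds themselves.

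In the wider list at 2-fold, 3 genes were higher and 5 lower between the lines in DMSO. In rapamycin 4 were higher, while Efemp2, Atp7a, Adamts10, Itgb1, Itgb3 and Itga8 stayed lower. Rapamycin raised 9 and lowered 1 in ELT3 and raised 7 and lowered 0 in ELT3-245, and the interaction was called for 0 higher and 1 lower. The unequal-variance test gave 4 higher between the lines in rapamycin, 9 higher and 1 lower with rapamycin in ELT3, and 5 and 0 in ELT3-245. Between the lines in rapamycin, Atp7a, Adamts10, Itgb1, Itgb3, Itgb5 and Itga8 stayed lower by it, while Efemp2 and Adamtsl5 lost the call. The higher Ctsk, Ltbp2, Ltbp4, Mmp2 and Itga5 lost it too (unequal-variance test, adjusted p 0.069 to 0.161). In DMSO the higher Hmcn1 and Ltbp1 and the lower Loxl4 and Itgb3 lost theirs. With no fold threshold 2 were lower with rapamycin in ELT3-245. The 1 upward interaction, Loxl3, became 0 with quantile normalization, median centring, array weights or the replicate block, and 2 with an intensity trend or without dim probe sets. With 1 array left out, upward interactions numbered 0 to 1 (the 1 was Adamtsl5, not Loxl3), downward ones 1 to 2, and genes lowered in ELT3-245 0 to 1.

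Over all probe sets the unequal-variance test called 827 higher and 873 lower between the lines in DMSO, against 1693 and 1752 in limma. In rapamycin it called 867 and 904 (2054 and 1836 in limma). For rapamycin it called 634 and 705 in ELT3 (1732 and 1960 in limma), and 441 and 368 in ELT3-245 (1310 and 1155 in limma).

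The deviations of 18 same-numbered pairs correlated at -0.12 to 0.22, with 4 over 0.1, against -0.21 to 0.13 for 36 pairs of different numbers. Of 12 arrays, 4 correlated best with their own number. Replicates 3 of ELT3-245 DMSO, ELT3-245 rapamycin and ELT3 rapamycin correlated at 0.15, 0.18 and 0.22, above every pair of different numbers. With replicate 3 of ELT3 DMSO they correlated at -0.12 to -0.08. Whether replicate numbers pair the samples is thus not settled. With the replicate block 1692 probe sets were higher and 1742 lower between the lines in DMSO, and the interaction was called for 410 and 415 instead of 503 and 478. The block left the members' counts at 6 and 1, 6 and 0, 0 and 0, 4 and 0, and 4 and 0. A second probe set per gene could not be tried, since each member had 1.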
